A study of Saccharomyces cerevisiae BY4741 with 4 samples.

Results

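The 10 genes described here encode enzymes, transporters and a regulator that let budding yeast grow on carbon sources other than glucose: FBP1, PCK1, ICL1, MLS1, MDH2, ACS1, CAT8, SUC2, JEN1 and ADY2. They were taken by systematic name, and all 10 were found as single rows among the 7382 features of the deposited count table. RNA came from Saccharomyces cerevisiae BY4741, labelled wild type, grown in YPD, a rich medium whose carbon source is glucose, to an OD600 of 0.6. It was sequenced as total RNA (2 replicates) and as poly(A) RNA (2 replicates), the latter captured by its tails on oligo-dT beads before a kit removed remaining rRNA. BY4741 is a haploid laboratory strain of mating type a that carries deletions in auxotrophy genes. All 4 libraries share strain, medium and growth stage, so the study holds no culture without glucose and the comparison is between RNA fractions. The labels call the replicates biological without naming separate cultures, so a p-value measures the spread between these libraries.

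The libraries held 52851542 to 75955489 counts each. Nuclear protein-coding features took 3.14% and 3.15% of the total RNA counts and 99.8% of the counts in each poly(A) library, so a coding gene had a median of 69 and 95 counts in total RNA and of 2677 and 2721 in poly(A) RNA. STE2, the alpha-factor receptor made in a cells, stood at percentile 96.8 of the coding genes in poly(A) RNA and STE3, its counterpart of alpha cells, at percentile 6.65. LEU2, MET17 and URA3, which BY4741 lacks, had no row in the table used here, while HIS3, which is only partly deleted in this strain, had 124 and 145 counts in total RNA. Parts of the STE3 and HIS3 genes are counted in separate features joined with another gene, and those reads are not included.

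Gluconeogenesis runs glycolysis in reverse to make glucose phosphates from smaller molecules. Among its steps that differ from glycolysis are those of FBP1, fructose-1,6-bisphosphatase, and PCK1, phosphoenolpyruvate carboxykinase. The glyoxylate cycle builds C4 acids from acetyl-CoA and uses ICL1, isocitrate lyase, MLS1, malate synthase, and MDH2, the cytosolic malate dehydrogenase. ACS1 activates acetate to acetyl-CoA, JEN1 carries lactate and pyruvate into the cell, ADY2 carries acetate, SUC2 is invertase, which splits sucrose outside the cell, and CAT8 is a zinc cluster activator. In glucose, Mig1 represses several of these genes. When glucose is gone, the kinase Snf1 and the activators Cat8 and Sip4, which bind carbon source response elements, turn on most of them.

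Promoter stretches of 6 of the genes are shown because they carry the elements just named. Within 600 bases before the start codon, the core of the carbon source response element, read as CC, any 6 bases and CCG on either strand, occurred in 7 of the 10 genes, with 24 matches in all, against 24.7% of the 5999 promoters of the same length in the RefSeq annotation of build R64. The Mig1 core, a G or C, then a C or T, then GGGG on either strand, occurred in 8 of the 10 genes and in 27.8% of all promoters. Both occurred in 6 of the genes and in 8.68% of all promoters. The proteins that bind these motifs are the known regulators named above, so the shares are a description and not a test. The windows can reach into neighbouring genes, overlapping matches were counted separately, and a match is a letter match, not a shown binding site. Each stretch of 100 bases below is written in the direction of its gene, with capitals for matches of either motif. The FBP1 stretch is chrXII:875206-875305, minus strand, with 3 response element cores and 1 Mig1 core. The ICL1 stretch, chrV:287263-287362, minus strand, has 1 of each. The MLS1 stretch, chrXIV:405843-405942, plus strand, has 5 response element cores, some of which overlap, and the MDH2 stretch, chrXV:83280-83379, minus strand, has 4 and 1 Mig1 core. The CAT8 stretch, chrXIII:831500-831599, minus strand, and the SUC2 stretch, chrIX:36886-36985, plus strand, have 2 and 3 Mig1 cores and no response element core.
FBP1: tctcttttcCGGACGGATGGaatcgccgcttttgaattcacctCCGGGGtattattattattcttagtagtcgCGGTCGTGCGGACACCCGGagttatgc
ICL1: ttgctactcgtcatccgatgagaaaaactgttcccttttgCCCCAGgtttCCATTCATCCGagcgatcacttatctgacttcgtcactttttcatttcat
MLS1: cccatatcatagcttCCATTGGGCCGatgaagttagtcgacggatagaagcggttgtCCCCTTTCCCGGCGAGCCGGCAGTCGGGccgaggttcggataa
MDH2: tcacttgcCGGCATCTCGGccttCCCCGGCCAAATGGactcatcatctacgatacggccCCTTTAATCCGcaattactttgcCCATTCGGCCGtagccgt
CAT8: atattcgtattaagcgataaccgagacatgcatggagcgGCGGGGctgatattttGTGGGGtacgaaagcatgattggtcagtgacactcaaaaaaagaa
SUC2: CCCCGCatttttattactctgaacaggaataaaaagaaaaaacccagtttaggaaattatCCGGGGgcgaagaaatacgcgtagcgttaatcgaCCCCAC

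PCK1, ACS1 and ADY2 also held response element cores, and no match of either motif was found in the 600 bases before JEN1. The response element core in ICL1 lay 398 to 388 bases before the start codon, and the 3 Mig1 cores of SUC2 began 499, 439 and 405 bases before it.

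The 10 transcripts were mostly scarce in glucose-grown cells, although bulk RNA cannot tell few cells with a transcript from little of it in each cell. Levels are given as CPM (counts scaled for library size) after TMM normalisation, which scales libraries so that the typical feature is equal, and per kb of gene where genes are compared with each other. In poly(A) RNA, 7 of the 10 genes lay below the 25th percentile of the 5877 single coding genes with a known length and 4 below the 10th, with a median percentile of 15.4. Only MDH2 and SUC2 lay above the median coding gene, which stood at 6.76 normalised CPM per kb. The 10 genes together took 0.0383% (Clopper-Pearson 95% interval 0.0378% to 0.0388%) and 0.0350% (0.0345% to 0.0355%) of the coding counts in poly(A) replicates 1 and 2, and 0.0502% (0.0469% to 0.0537%) and 0.0478% (0.0451% to 0.0507%) in total RNA replicates 1 and 2. These intervals cover counting error only.

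**Figure D1:**
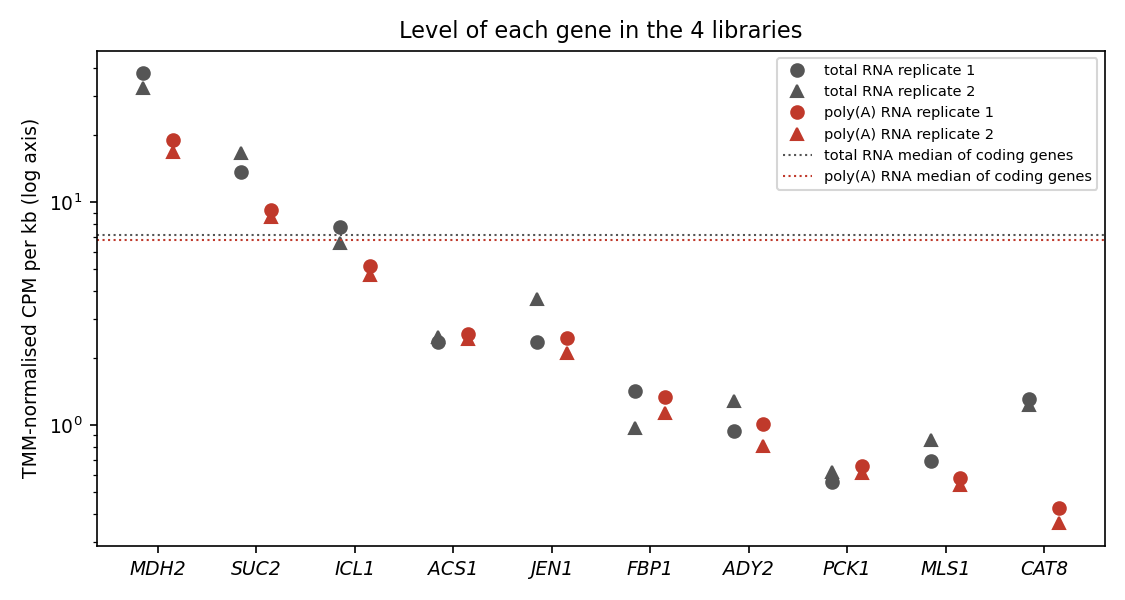
Level of each gene in each library as TMM-normalised CPM per kb on a log axis, with circles for replicate 1, triangles for replicate 2, grey for total RNA, red for poly(A) RNA and dotted lines at the median coding gene of each fraction. MDH2 and SUC2 lie above both lines in all 4 libraries, ICL1 lies close to them at 4.74 to 7.75, and the other 7 genes lie below them in every library.

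In poly(A) RNA the order from high to low per kb was MDH2, SUC2, ICL1, ACS1, JEN1, FBP1, ADY2, PCK1, MLS1 and CAT8, and the highest mean was 45.2 times the lowest. The libraries of neighbours in that order did not overlap except for ACS1 and JEN1. In total RNA the range was 60.2-fold, and JEN1 with ACS1, CAT8 with FBP1 and FBP1 with ADY2 overlapped. The order of the first 3 was the same in both fractions, and CAT8 moved from the sixth place in total RNA to the last in poly(A) RNA. Pearson's r of the log2 levels between the fractions was 0.96 over the 10 genes, given as a description since all 10 come from the same libraries.

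**Figure D2:**
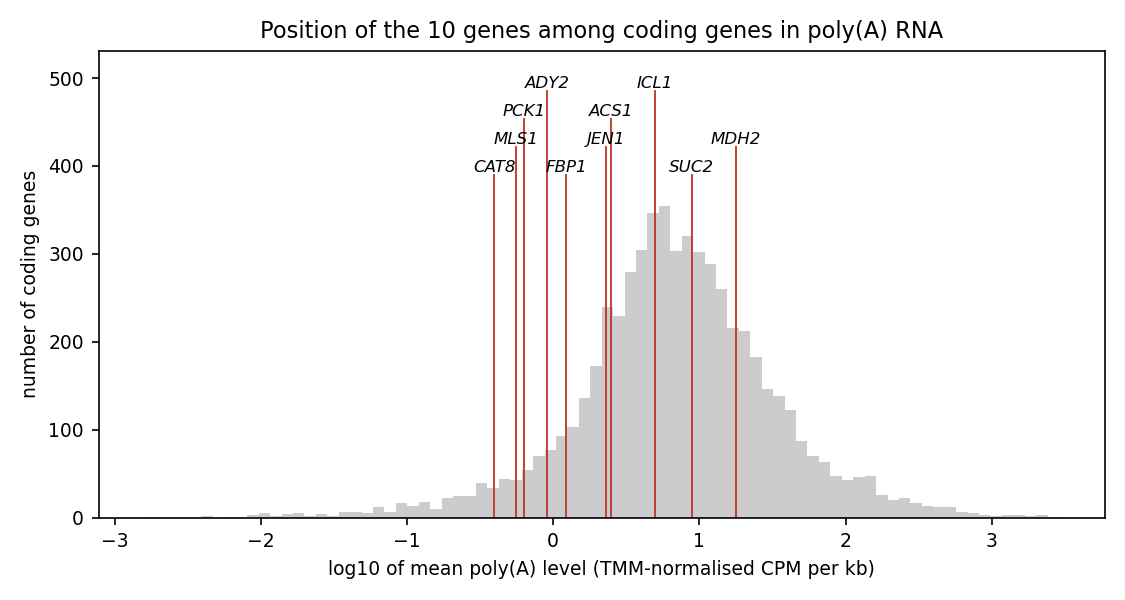
Histogram of the mean poly(A) level of single coding genes on a log10 scale, without 5 genes that had no poly(A) counts, with red lines at the 10 genes. CAT8, MLS1, PCK1 and ADY2 stand in the lower tail below the 10th percentile, and MDH2 stands furthest to the right at percentile 76.0.

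Poly(A) RNA was then compared with total RNA, which asks whether a transcript kept its relative abundance through purification. By edgeR's quasi-likelihood test with Benjamini-Hochberg adjustment at 0.05, 5 of the 10 genes were lower in poly(A) RNA, 0 were higher and 5 did not pass. At an unadjusted p under 0.05 the count of higher genes was also 0, and DESeq2 called 4 lower and 0 higher. Over all 6945 features tested, 31.2% were lower and 31.0% higher. The median log2 fold change of the 10 genes was -0.47 (-0.25 without total RNA replicate 2), against 0.04 for all features. The share of all calls that were higher was 49.9% here but 67.1% when libraries were scaled to their coding counts and 98.9% when scaled to their totals, with the median of all features at 0.37 and 5.34, so every direction is relative to the scaling. Under coding counts 3 genes (MDH2, SUC2 and CAT8) were lower, where 22.1% of all features were, and ACS1 was higher, where 45.1% were. All 10 are genes of 1 exon that overlap no other annotated gene and share no stretch of 50 bases with another place in the genome. All 10 passed the filter on low counts, 4 of them (FBP1, PCK1, MLS1 and ADY2) only through their poly(A) libraries. Both poly(A) libraries lay below both total RNA libraries in 5 of the 10 genes and above them in 0, as they did in 38.3% and 42.8% of all features.

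**Figure D3:**
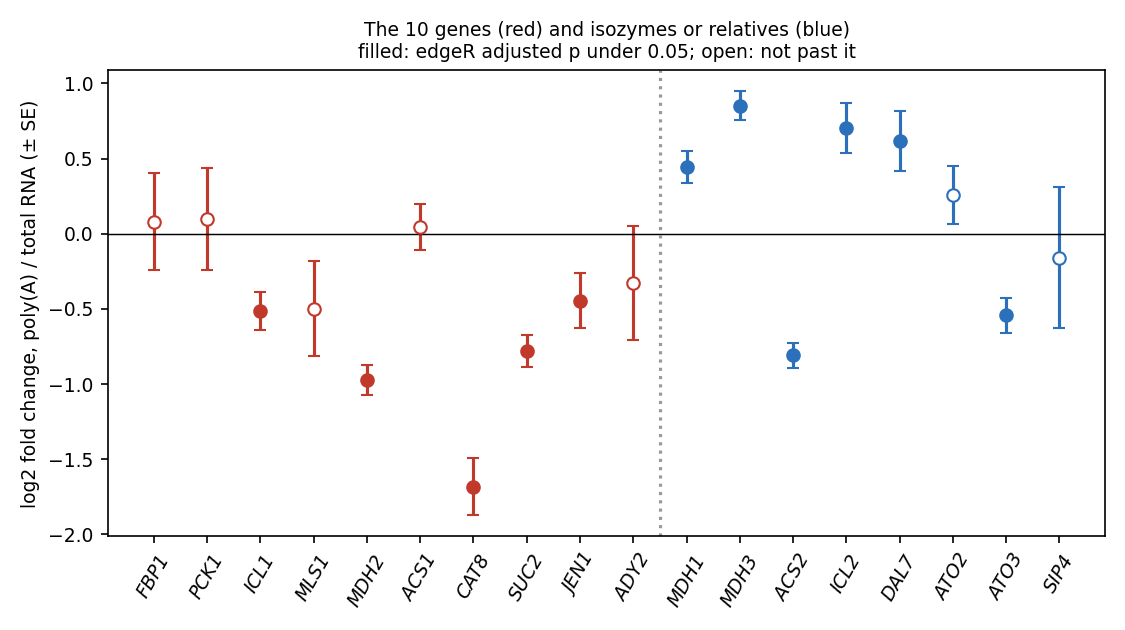
Log2 fold change of poly(A) over total RNA, with its SE as bars, for the 10 genes in red and for isozymes or related proteins in blue, filled where the adjusted p is under 0.05. MDH2, SUC2, ICL1, JEN1 and CAT8 lie below 0, while MDH1, MDH3, ICL2 and DAL7 lie above it.

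The gluconeogenic enzymes FBP1 and PCK1 were rare in both fractions. FBP1 (YLR377C, chromosome XII, 873746 to 874792, 1 exon) had 13 and 12 counts in total RNA against 461 and 399 in poly(A) RNA, which is 1.20 ± 0.324 and 1.23 ± 0.143 normalised CPM per kb (SD, n = 2). PCK1 (YKR097W, chromosome XI, 631152 to 632801) had 8 and 12 counts against 356 and 339, or 0.586 ± 0.0408 and 0.631 ± 0.0306 per kb. The 2 fractions overlapped for both genes. The log2 fold change was 0.08 (SE 0.32, adjusted p = 0.845) for FBP1 and 0.10 (SE 0.34, adjusted p = 0.822) for PCK1. With 8 to 13 counts per total RNA library, the approximate 95% intervals of these values were wide. Made from the SE and a normal distribution, they are somewhat narrower than the edgeR test implies. They ran from -0.55 to 0.71 for FBP1 and from -0.56 to 0.76 for PCK1, so differences inside them were not excluded. In poly(A) RNA, FBP1 stood at percentile 11.1 and PCK1 at 6.47.

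The glyoxylate cycle genes spanned the widest range. ICL1 (YER065C, chromosome V, 285241 to 286914) had 113 and 130 counts in total RNA against 2877 and 2675 in poly(A) RNA, or 7.16 ± 0.842 and 4.97 ± 0.325 per kb. Both poly(A) libraries lay below both total RNA libraries, and ICL1 fell by 0.51 on the log2 scale (SE 0.13, adjusted p = 0.00123), a call lost under scaling to coding counts (-0.19, adjusted p = 0.191). MLS1 (YNL117W, chromosome XIV, 406358 to 408022), whose product works in the step after isocitrate lyase, had 10 and 17 counts in total RNA against 318 and 302 in poly(A) RNA. At 0.558 ± 0.0281 per kb in poly(A) RNA it was among the rarest of the 10, and its log2 fold change of -0.50 (SE 0.32) did not pass (adjusted p = 0.180), although its 2 fractions did not overlap either. The cycle's enzymes thus did not share a level: ICL1 stood at percentile 39.8 and MLS1 at percentile 5.94 of the coding genes in poly(A) RNA.

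MDH2 (YOL126C, chromosome XV, 81787 to 82920) was the most abundant of the 10 and had 375 and 437 counts in total RNA against 7104 and 6408 in poly(A) RNA. Its level was 35.3 ± 3.83 per kb in the total RNA libraries and 17.9 ± 1.55 in the poly(A) ones. It fell by 0.97 on the log2 scale (SE 0.10, adjusted p = 2.42e-08), to 0.509 times its relative level in total RNA, and the fractions did not overlap. MDH2 was called lower under every alternative tried except scaling to library totals, with -0.65 under scaling to coding counts.

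MDH2 and its isozymes changed places between the fractions. MDH1, the mitochondrial malate dehydrogenase, and MDH3, the peroxisomal one, rose by 0.44 (SE 0.11, adjusted p = 0.00121) and 0.85 (SE 0.09, adjusted p = 6.91e-08), the call of MDH1 being lost with the trend in gene length described further on removed (0.11, adjusted p = 0.414) and its value 0.77 under scaling to coding counts. Per kb, MDH2 was 2.64 and 1.98 times MDH1 in total RNA replicates 1 and 2, but 0.873 and 0.816 times MDH1 in the poly(A) replicates. Against MDH3 the ratios were 1.49 and 1.40 in total RNA and 0.439 and 0.376 in poly(A) RNA. MDH2 was thus the highest of the 3 in both total RNA libraries and the lowest in both poly(A) libraries, an order that no scaling of a whole library can alter. The difference between the genes was not tested. The 3 genes are close in length, at 1134, 1005 and 1032 bp, and none shares a stretch of 50 bases with another place in the genome.

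ACS1 (YAL054C, chromosome I, 42881 to 45022) had 44 and 63 counts in total RNA against 1814 and 1768 in poly(A) RNA. Its level was 2.42 ± 0.0891 per kb in the total RNA libraries and 2.51 ± 0.0804 in the poly(A) ones, the fractions overlapped, and the log2 fold change was 0.04 (SE 0.15, adjusted p = 0.823). ACS1 was called higher under scaling to coding counts (0.37, adjusted p = 0.0389). ACS2, the isozyme known for its expression on glucose, was far more abundant, at 19.4 and 20.5 times ACS1 per kb in total RNA and 10.9 and 11.1 times in poly(A) RNA. ACS2 itself fell by 0.81 on the log2 scale (SE 0.08, adjusted p = 1.53e-08), and by 0.49 under scaling to coding counts.

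Relatives of the glyoxylate enzymes were higher in poly(A) RNA. ICL2, a mitochondrial relative of ICL1 that acts on 2-methylisocitrate, rose by 0.70 (SE 0.17, adjusted p = 0.00101), and ICL1 went from 3.65 and 3.12 times ICL2 per kb in total RNA to 1.47 and 1.41 times in poly(A) RNA. DAL7, a malate synthase known from allantoin breakdown, rose by 0.62 (SE 0.20, adjusted p = 0.0108), a call that was lost without total RNA replicate 2 (0.41, adjusted p = 0.201); scaled to coding counts the value was 0.94. DAL7 exceeded MLS1 in every library, by 2.70 and 1.65 times per kb in total RNA and by 4.39 and 4.46 times in poly(A) RNA. Part of the DAL7 gene is counted in a separate feature that it shares with an overlapping reading frame, and those reads are not included.

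The transporters were also scarce. JEN1 (YKL217W, chromosome XI, 22234 to 24084) had 38 and 81 counts in total RNA against 1506 and 1315 in poly(A) RNA, or 2.36 and 3.70 per kb against 2.46 and 2.11. The fractions overlapped, because total RNA replicate 1 lay among the poly(A) libraries. JEN1 fell by 0.44 on the log2 scale (SE 0.18, adjusted p = 0.0397), and without total RNA replicate 2 the value was -0.04 (adjusted p = 0.908), against -0.69 without total RNA replicate 1. The call was also lost without poly(A) replicate 2 (-0.32), without the filter on low counts (-0.43), with DESeq2 (-0.45, adjusted p = 0.0895) and under scaling to coding counts (-0.12).

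ADY2 (YCR010C, chromosome III, 132273 to 133124) had 7 and 13 counts in total RNA against 285 and 231 in poly(A) RNA, and its log2 fold change of -0.33 (SE 0.38, adjusted p = 0.471) did not pass. Its relatives ATO2 and ATO3, members of the same family of ammonium and acetate transporters, were higher than ADY2 in every library. Per kb in poly(A) RNA, ATO2 was 4.11 and 5.23 times and ATO3 14.0 and 16.5 times the level of ADY2. ATO3 fell by 0.54 (SE 0.12, adjusted p = 0.000379), which was lost without total RNA replicate 2 (-0.34, adjusted p = 0.0524) and under scaling to coding counts (-0.22, adjusted p = 0.0988). ATO2 had 0.26 (SE 0.19, adjusted p = 0.257) and was called higher under scaling to coding counts (0.58, adjusted p = 0.0112).

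SUC2 (YIL162W, chromosome IX, 37385 to 38983) was the second most abundant of the 10, with 191 and 314 counts in total RNA against 4870 and 4626 in poly(A) RNA. Its level was 15.2 ± 2.03 per kb in the total RNA libraries and 8.90 ± 0.447 in the poly(A) ones, and both poly(A) libraries lay below both total RNA libraries. It fell by 0.78 on the log2 scale (SE 0.11, adjusted p = 1.65e-06), and by 0.46 under scaling to coding counts. At percentile 58.3 in poly(A) RNA, SUC2 stood above the median coding gene. The counts are per gene and cannot separate transcripts of SUC2 that start at different places, so how much of this level is under glucose repression was not tested.

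CAT8 (YMR280C, chromosome XIII, 827028 to 831329) had the lowest poly(A) level of the 10. It had 49 and 63 counts in total RNA against 606 and 527 in poly(A) RNA, which is 1.27 ± 0.0500 and 0.395 ± 0.0444 per kb. It fell by 1.68 on the log2 scale (SE 0.19, adjusted p = 1.04e-07), the largest change in size among the 10, and the fractions did not overlap. SIP4, a related activator of the same elements, had 4 and 8 counts in total RNA against 156 and 193 in poly(A) RNA, and its log2 fold change was -0.16 (SE 0.47, adjusted p = 0.791). CAT8 was 7.09 and 4.56 times SIP4 per kb in total RNA and 2.25 and 1.58 times in poly(A) RNA. The genes differ in length, at 4302 and 2490 bp, and length moved with the fold change, as described below. With that trend removed, CAT8 had -0.33 (adjusted p = 0.130) and SIP4 0.45 (adjusted p = 0.418). The difference between the genes was not tested.

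Gene length moved with these changes. Over 5781 coding genes, Spearman's rho between length and log2 fold change was -0.60, with genes as the points of 1 fit, and CAT8, at 4302 bp, was the longest of the 10. The trend stood at -1.35 for its length. With the trend removed, the value for CAT8 was -0.33 (SE 0.18) and no longer passed (adjusted p = 0.130). MDH2 went the other way, since genes of its length tended to be higher in poly(A) RNA: its value became -1.21 (SE 0.10, adjusted p = 1.52e-09). SUC2 (-0.68, adjusted p = 1.65e-05) and ICL1 (-0.37, adjusted p = 0.0180) stayed lower, JEN1 did not (-0.19, adjusted p = 0.395), and ACS1 was higher than genes of its length (0.47, SE 0.15, adjusted p = 0.0141). With the trend removed, 3 of the 10 genes were lower and 1 higher, against 26.5% and 23.8% of all features. Among the genes described above and in the lists below, the fall of ACS2 became 0.44, that of ATO3 1.01, that of MAE1 0.60 and the rise of MDH3 0.54.

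**Figure D4:**
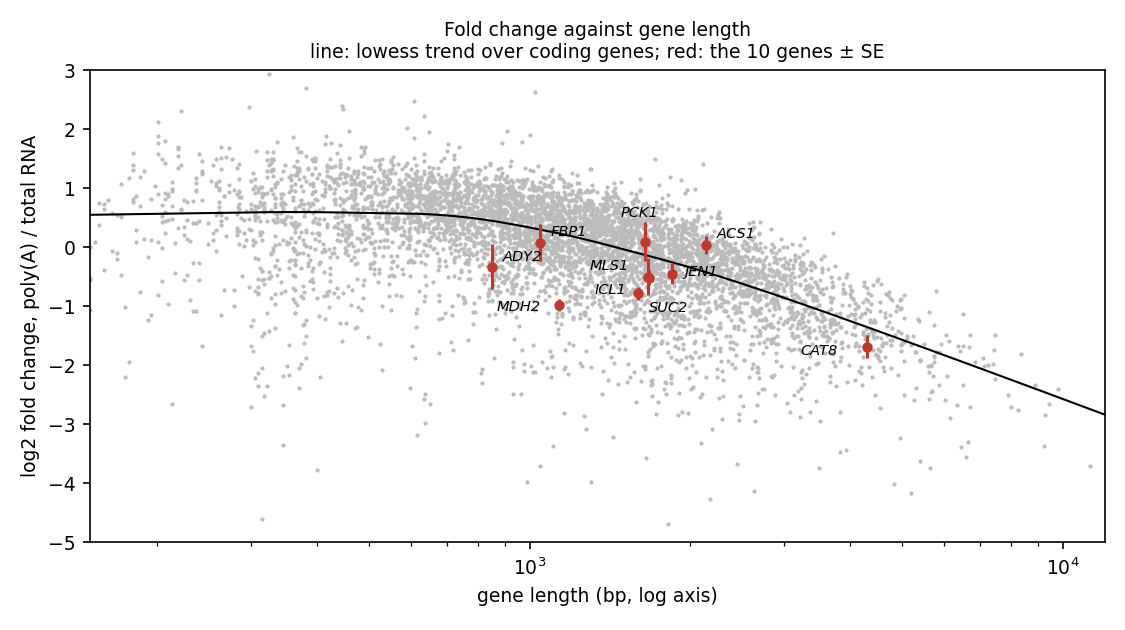
Log2 fold change of poly(A) over total RNA against gene length on a log axis for 5781 coding genes in grey, 71 of which lie outside the axes, with the lowess trend as a line and the 10 genes in red with their SE. CAT8 lies close to the trend at the long end, and MDH2 lies 1.21 below it among genes of its length.

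The 10 genes also moved together between the poly(A) replicates. After normalisation all 10 were lower in poly(A) replicate 2 than in replicate 1, as were 50.2% of the tested coding features. The ratio of replicate 2 to replicate 1 ran from 0.795 for ADY2 to 0.956 for ACS1, with a median of 0.898, while the 25th and 75th percentiles of coding genes were 0.939 and 1.06. The exact 95% counting interval lay below 1 for 7 of the 10 genes. The share of coding features with such an interval was not counted, so the 7 cannot be read as particular to these genes. The exact 95% counting interval of MDH2 was 0.855 to 0.915, that of JEN1 0.795 to 0.923 and that of FBP1 0.740 to 0.972. Coding features as a whole differed between the poly(A) replicates by more than counting error (chi-square per degree of freedom 28.3). Their 5th and 95th percentiles were 0.806 and 1.17, and of the 10 genes only ADY2 lay outside them. In total RNA, 4 of the 10 were lower in replicate 2, against 44.7% of coding features. There MDH2 had a ratio of 0.857 (0.745 to 0.987), while SUC2 had 1.21 (1.01 to 1.46) and JEN1 1.57 (1.05 to 2.37). These ratios compare single libraries, so no test over replicates applies, and the labels do not say whether a total and a poly(A) library of the same number share a culture.

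**Figure D5:**
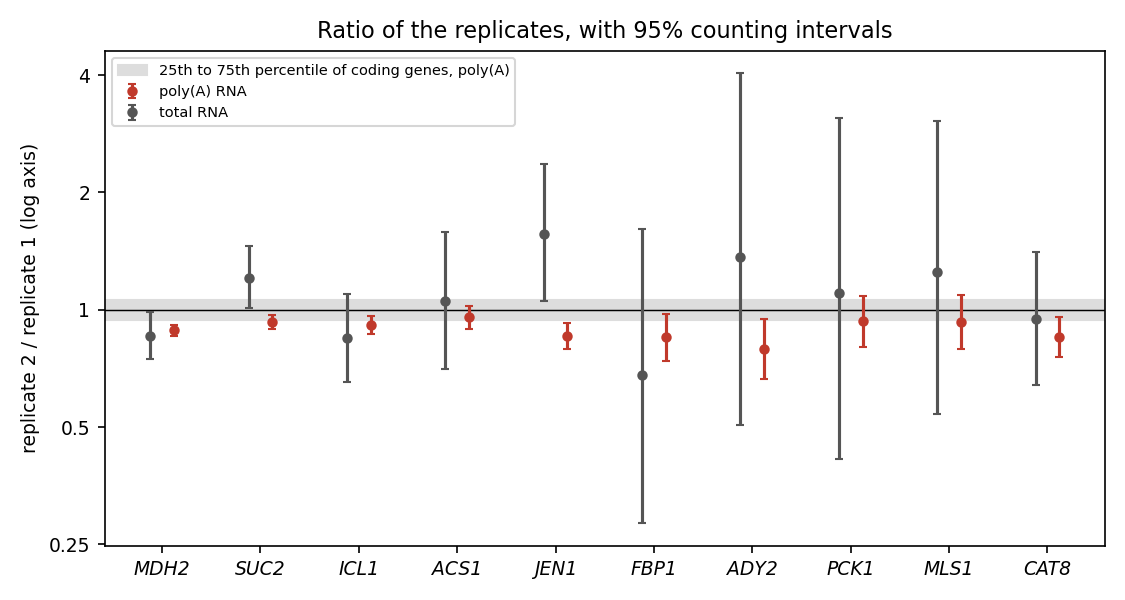
Ratio of replicate 2 to replicate 1 after TMM normalisation on a log axis, in poly(A) RNA (red) and total RNA (grey), with exact 95% counting intervals and a grey band between the 25th and 75th percentiles of coding genes in poly(A) RNA. All 10 red points lie below 1, whereas the grey points lie on both sides.

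Other genes of alternative carbon use, a list of 22, went both ways between the fractions, with 6 higher, 8 lower and 8 not past the test and a median log2 fold change of -0.17. These shares lie near the 31.0% higher and 31.2% lower of all features, and under scaling to coding counts 9 were higher and 6 lower, against 45.1% and 22.1%. PYC2 and PYC1, the pyruvate carboxylases that feed oxaloacetate to gluconeogenesis, fell by 1.70 and 1.49 (SE 0.08 and 0.10, adjusted p = 4.17e-14 and 1.73e-11). With the length trend removed these long genes were still lower, at -0.62 and -0.41 (adjusted p = 1.03e-06 and 0.00124). Of their stretches of 50 bases, 8.44% in PYC2 and 8.46% in PYC1 occur elsewhere in the genome, and how such reads were counted is not given. MAE1, the mitochondrial malic enzyme, had the highest poly(A) level per kb of the list outside the isozymes, 28.8 ± 1.22. It fell by 0.94 (SE 0.08), or by 0.62 under scaling to coding counts. As for DAL7, part of the MAE1 gene is counted in a separate feature, and those reads are not included. SFC1, the mitochondrial carrier that exchanges succinate for fumarate, had 0 and 2 counts in total RNA against 123 and 103 in poly(A) RNA, a ratio of 3.48 after normalisation with an exact 95% counting interval of 0.952 to 28.9. SFC1 did not pass (adjusted p = 0.0942), but was called higher under scaling to coding counts (adjusted p = 0.0408). The list's median percentile in poly(A) RNA was 29.2.

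Regulators of these genes were lower in poly(A) RNA in 7 of 9 cases and higher in 0 by edgeR and by DESeq2 (1 at an unadjusted p under 0.05 in edgeR), with a median of -0.72, where 31.2% of all features were lower and 31.0% higher. Under scaling to coding counts, 5 of the 9 were lower and 1 was higher, against 22.1% and 45.1% of all features. With the length trend removed, 5 were again lower and 1 higher, against 26.5% and 23.8% of all features. ADR1, an activator of genes for ethanol and fatty acid use, fell by 1.99 (SE 0.13), and with the length trend removed by 0.75 (adjusted p = 5.42e-05). MIG2 and MIG1, the glucose repressors, fell by 1.13 and 0.94 (SE 0.13 and 0.11), and MIG1 by 0.62 under scaling to coding counts. HAP4, the activator subunit for respiratory genes, had the highest poly(A) level of the list, 21.7 ± 2.62 per kb, and fell by 0.37 (SE 0.10, adjusted p = 0.00370), a call lost without total RNA replicate 1 (-0.22, adjusted p = 0.0742), under scaling to coding counts (-0.05) and with the length trend removed (-0.23, adjusted p = 0.0687). Without poly(A) replicate 2 it was -0.24 (adjusted p = 0.0466). The activators spanned a wide range of levels in poly(A) RNA, with SIP4, CAT8, ADR1, ERT1, RDS2 and HAP4 at percentiles 2.69, 4.44, 10.1, 21.6, 34.8 and 80.04, and the repressors MIG1 and MIG2 lay within it at 56.8 and 60.8.

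The GID ubiquitin ligase, which marks the FBP1, PCK1 and MDH2 proteins for destruction when glucose returns, was measured through 8 of its genes, of which 4 were lower, 1 was higher and 3 did not pass, with a median of -0.35, against 31.2% lower and 31.0% higher over all features. GID7 and GID8 fell by 1.55 and 1.19 (SE 0.13 and 0.15). Part of the GID8 gene is counted in a separate feature, as for DAL7, and those reads are not included. VID24, the receptor that binds the substrates, fell by 0.82 (SE 0.11; 0.50 under scaling to coding counts) and had the highest poly(A) level of the list, 13.0 ± 1.02 per kb. The gene that was higher, UBC8, encodes the conjugating enzyme and rose by 0.56 (SE 0.19, adjusted p = 0.0153), a call that was lost with DESeq2 (0.54, adjusted p = 0.0607), without total RNA replicate 1 (0.50, adjusted p = 0.0715) and with the length trend removed (0.06), with 0.88 under scaling to coding counts. All 8 genes were lower in poly(A) replicate 2 than in replicate 1, as were 7 of the 9 regulators and 16 of the 22 other carbon genes, against the 50.2% of coding features given above.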

How the data were processed

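The authors' deposited table gives raw read counts as whole numbers for each annotated feature and library, per the file headers. The submitters' processing notes list FastQC 0.11.8, cutadapt 1.18, Bowtie2 2.3.4.3 and build R64 and give no roles. Which program counted the reads, whether it used strand and how it handled multiply mapped reads is not given in the sources used here. Among the 7382 features, 622 join overlapping genes, and none of these names one of the 10 genes. A further 5 lines were empty.

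Counts were tested with edgeR 4.0.16 (R 4.3.3), using filterByExpr, TMM and its quasi-likelihood F test, with Benjamini-Hochberg adjustment over all 6945 features. The SE is the log2 fold change divided by the square root of F. Lengths, coordinates and promoters came from RefSeq R64, the build of the notes, and the 600-base promoter window was set by hand. In a simulation with 6781 features, the test called 84% of features with a 2-fold change, 63% with a 1.5-fold change and 0.106% with none. There only 200 features changed, as many up as down, and all had the same dispersion. In the data 2153 features were called higher and 2164 lower. The simulated shares are therefore not the power or error rate of the real comparison. The length trend was a lowess fit over coding genes, entered as an offset. DESeq2 1.42.0 was used for alternatives and Python 3.11.15 for descriptions. Replicates differed by more than sampling noise (chi-square per degree of freedom 28.3 in poly(A) and 1.86 in total RNA). This statistic grows with depth, so the 2 values do not compare how well the replicates of each fraction agreed. Coding counts were 52733872 and 53059647 in poly(A) RNA against 1689196 and 2389222 in total RNA.

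The 10 genes, the gene lists and the alternatives were chosen with earlier results of these data known. Named besides the 10 were fixed isozymes and relatives, and per list the 3 genes with the largest absolute log2 fold change and the 1 with the highest poly(A) level per kb. UBC8 and the identity genes were named besides. ERT1 and RDS2 are given by percentile only and are not counted among the named genes below.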

Additional observations from a re-analysis of the deposited data

How the results depend on the processing

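Scaling to library totals changed most calls, whereas 22 of the 30 genes named stayed the same under scaling to coding counts. With library totals, 10 of the 10 genes, 22 other carbon genes, 9 regulators, 8 GID genes and 6860 of all features were called higher, and 0, 0, 0, 0 and 75 lower; the median of the 10 genes was 4.83. Values that turned were 4.80 for ICL1 and 4.80 for MLS1, 4.33 for MDH2, 3.62 for CAT8, 4.53 for SUC2, 4.86 for JEN1, 4.96 for ADY2, 4.50 for ACS2, 4.77 for ATO3, 5.12 for SIP4, 3.61 for PYC2, 3.82 for PYC1, 4.37 for MAE1, 3.32 for ADR1, 4.17 for MIG2, 4.37 for MIG1, 4.94 for HAP4, 3.76 for GID7, 4.11 for GID8 and 4.48 for VID24. With coding counts, 1 of the 10 genes was higher, 3 were lower and 1 regulator was higher. Over all features, 45.1% were then higher and 22.1% lower. The median of the 10 genes was -0.15 and SIP4 had 0.17. With the length trend removed, 1 of the 10 was higher and 3 lower, and 1 regulator and 2 GID genes were higher. Over all features, 23.8% were then higher and 26.5% lower. FBP1 had -0.22, ATO2 -0.19 and SIP4 0.45 with the trend removed. With at least 10 CPM in 2 libraries ACS1 had -0.010, and CAT8, FBP1, MLS1, PCK1 and ADY2 were not tested. DESeq2 called 0 GID genes higher. Where not named by construction, the cause was not tested. Leaving out each library in turn gave 4 to 5 of the 10 genes lower and 0 higher, a median of -0.56 to -0.25 (-0.25 without total RNA replicate 2), 0 to 1 regulators higher, 0 to 1 GID genes higher, FBP1 at -0.21 to 0.35 and SIP4 at -0.36 to 0.19. A replicate block, run because the labels number the replicates, changed no call of the 30 genes named; MDH2 had -0.98 under the block and 2200 of all features were higher and 2191 lower. The replicate differences of the 2 fractions correlated at 0.15 over coding genes, which does not show that equal numbers pair libraries. Dropping joined features and DESeq2 size factors changed no call of the 30 genes. Percentiles of poly(A) level moved by less than the replicate spread under scaling to coding counts and with DESeq2 size factors. This was fixed in advance, since scaling a whole library leaves the ranks within it unchanged. For FBP1, PCK1, MLS1 and ADY2, 7 to 17 counts per total RNA library limit the precision.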
